A study of Mus musculus with 6 samples.

Results

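CC chemokines are small secreted proteins that draw leukocytes along a concentration gradient, and 10 of their genes (Ccl2, Ccl3, Ccl4, Ccl5, Ccl6, Ccl7, Ccl8, Ccl9, Ccl12 and Ccl22) were followed here through the differentiation of mouse osteoclast precursors. They were taken by symbol from a table of 24940 genes, and 9 of the 10 passed the filter on low values (at least 0.5 RPKM as the mean of all 6 libraries), which left 11595 genes to be tested. Ccl8 was the member below the filter. RPKM is the number of reads on a transcript, scaled to its length in kilobases and to the mapped reads of the library.

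Osteoclast precursors are bone marrow-derived macrophages (BMMs), which M-CSF expands from marrow cells and which turn into osteoclasts, the multinucleated cells that resorb bone, when RANKL is added. All cultures received M-CSF at 30 ng/mL, and there were 2 libraries for each of 3 conditions: M-CSF alone (-R), M-CSF with RANKL at 100 ng/mL (+R), and M-CSF with RANKL and the leaf extract (LE) of Abeliophyllum distichum at 10 μg/mL (R+LE). The cultures were kept for 3 days. The sample labels name C57BL/6 mice of 6 to 8 weeks, whereas the methods of the study name ICR mice, and neither source says that the 2 libraries of a condition came from separate cultures or animals, so the p-values measure the spread between these libraries, which may be technical. The libraries held 29390215 to 34846382 mapped reads, so that 3 reads on 1 kb of transcript make 0.0861 to 0.102 RPKM.

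CC chemokines take their name from an adjacent cysteine pair near the amino terminus, and they act on G protein-coupled receptors (the CCRs) of monocytes, macrophages and other leukocytes. Several of them, among them CCL2, CCL3, CCL5 and CCL9, are known to attract osteoclast precursors or to promote their fusion. CCL9 with its receptor CCR1 is a well known chemokine and receptor pair of osteoclast cultures. Macrophages are a main source of these ligands, and NF-κB, AP-1 and interferon-regulated factors are known to drive many of their promoters.

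The promoters of neighbouring members that moved differently (Ccl9 and Ccl6) and of neighbours that were both lower with RANKL (Ccl12 and Ccl8) are shown first. RefSeq promoters of GRCm38.p6, the build that the methods call mm10, were at hand for 6 of the 10 members (Ccl3, Ccl6, Ccl8, Ccl9, Ccl12 and Ccl22), and the 250 bases before the transcript start are given 5′ to 3′ on the strand of the gene. Capitals mark matches on either strand to the NF-κB motif, to the AP-1 motif TGANTCA, to the interferon response element TTCNNTTTC, to the GAS motif TTCNNNGAA or to TATAAA. The Ccl9 promoter lies at chr11:83578637-83578886 (- strand), the Ccl6 promoter at chr11:83593088-83593337 (- strand), the Ccl12 promoter at chr11:82101595-82101844 (+ strand) and the Ccl8 promoter at chr11:82114935-82115184 (+ strand).
Ccl9: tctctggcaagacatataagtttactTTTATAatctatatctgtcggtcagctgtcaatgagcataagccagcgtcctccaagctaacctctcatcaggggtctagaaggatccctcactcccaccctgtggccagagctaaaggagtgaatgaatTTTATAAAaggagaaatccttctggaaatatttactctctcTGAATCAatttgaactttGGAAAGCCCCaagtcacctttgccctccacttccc
Ccl6: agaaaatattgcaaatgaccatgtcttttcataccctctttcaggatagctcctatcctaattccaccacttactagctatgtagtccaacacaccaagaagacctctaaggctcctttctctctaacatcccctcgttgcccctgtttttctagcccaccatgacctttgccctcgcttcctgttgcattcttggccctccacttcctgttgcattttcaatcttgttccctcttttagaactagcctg
Ccl12: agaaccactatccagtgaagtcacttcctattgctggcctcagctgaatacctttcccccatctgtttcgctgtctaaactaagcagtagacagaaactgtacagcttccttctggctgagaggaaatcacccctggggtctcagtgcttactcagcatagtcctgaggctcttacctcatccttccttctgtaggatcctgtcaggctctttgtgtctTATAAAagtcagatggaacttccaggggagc
Ccl8: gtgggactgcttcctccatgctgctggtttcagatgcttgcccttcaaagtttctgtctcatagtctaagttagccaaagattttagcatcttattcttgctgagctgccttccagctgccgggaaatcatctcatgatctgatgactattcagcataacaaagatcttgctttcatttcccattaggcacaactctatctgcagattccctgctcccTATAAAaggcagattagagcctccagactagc

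The Ccl9 promoter held matches to 3 of the 5 motifs. Its NF-κB match lay on the opposite strand at -35 to -26, where -1 is the base before the transcript start, its AP-1 match at -53 to -47, and its TATAAA matches at -92 to -87 and, on the opposite strand, at -94 to -89 and -224 to -219, of which those at -92 and -94 overlap. Ccl12 and Ccl8 each held TATAAA, at -31 to -26 and at -32 to -27, and the Ccl3 promoter held the interferon response element at -39 to -31. No motif of the 5 was found in these windows of Ccl6 and Ccl22. Of 32851 promoters of the same length, 3.90% held the NF-κB motif on either strand, 6.75% TGANTCA, 7.13% TTCNNTTTC, 7.02% TTCNNNGAA and 12.4% TATAAA. The best local alignment of the Ccl12 and Ccl8 promoters was 61.0% identical over 146 columns, while that of Ccl6 and Ccl9 covered 17 columns, 16 of them identical.

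Without RANKL, Ccl9, Ccl6, Ccl2 and Ccl7 were the abundant CC chemokine transcripts. In the -R libraries, Ccl9 stood at 459 ± 3.40 RPKM (SD, n = 2, as for all means below), Ccl6 at 433 ± 13.5, Ccl2 at 316 ± 6.55 and Ccl7 at 195 ± 0.578. The ranges of these 4 genes did not touch in this condition. Ccl3 followed at 27.7 ± 3.71 RPKM, with a range that overlapped that of Ccl5 at 24.3 ± 1.24, and then came Ccl4 at 21.5 ± 0.540 and Ccl12 at 4.50 ± 0.790. Ccl22 at 0.399 ± 0.245 RPKM and Ccl8 at 0.338 ± 0.00283 were close to the level of a few reads, and their ranges overlapped.

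**Figure D1:**
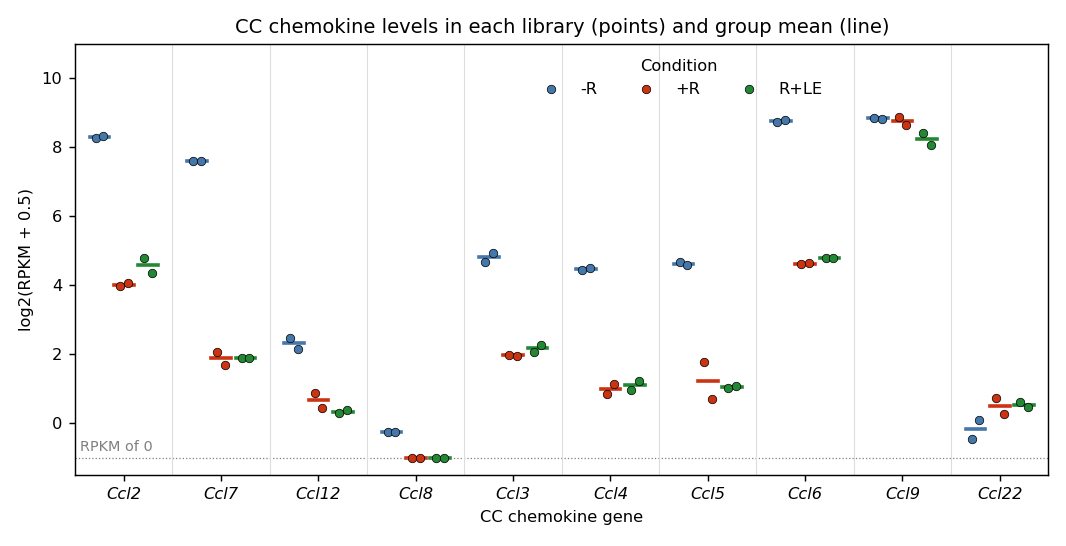
Levels of the 10 CC chemokines in each library, as log2(RPKM + 0.5) on the y axis and by gene on the x axis, with a point for each library, a line for the mean of each condition and a dotted line where an RPKM of 0 falls. The -R points lie above the +R and R+LE points for 8 genes, while the Ccl9 points of -R and +R overlap and the Ccl22 points of -R lie lowest.

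RANKL was compared with M-CSF alone to ask how the chemokine output of the precursors differs once they differentiate. Of the 9 members tested, 7 fell by at least 2-fold with RANKL and 0 rose by at least 2-fold (limma, Benjamini-Hochberg adjusted p below 0.05), where 8.92% of all tested genes were called lower and 6.58% higher. The median log2 fold change of the 9 was -3.40, against 0.05 over all tested genes. In addition, 8 of the 9 had an adjusted p below 0.05 at any fold change, a level that 45.4% of all tested genes reached. Ccl9 and Ccl22 were the members outside the 7. Fold changes are on the scale of log2(RPKM + 0.5), which understates those of low genes.

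Ccl2, Ccl7, Ccl12 and Ccl8 belong to the monocyte chemoattractant group, and the first 3 are ligands of CCR2, the receptor that brings monocytes out of marrow. Ccl2 (chr11:82035577-82037452, + strand) was at 311 and 321 RPKM in -R, at 15.4 and 16.1 in +R, and at 27.4 and 20.2 with LE. All 4 libraries with RANKL lay far below both without it. The log2 fold change of +R against -R was -4.28 ± 0.16 (SE), or 19.5-fold lower, with an adjusted p of 1.80e-11.

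Ccl7 (chr11:82045712-82047523, + strand), the neighbour of Ccl2, had the largest estimated fall among the members. It was at 195 and 194 RPKM in -R, at 3.69 and 2.75 in +R, and at 3.19 and 3.19 with LE. This was 52.9-fold lower in +R (log2 fold change -5.73 ± 0.15, adjusted p = 5.03e-13). The ratio of Ccl2 to Ccl7 RPKM was 1.59 and 1.65 in -R, 4.16 and 5.86 in +R, and 8.60 and 6.33 with LE.

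Ccl12 (chr11:82101845-82103399, + strand) was a far weaker transcript, at 5.06 and 3.95 RPKM in -R, 1.35 and 0.859 in +R, and 0.716 and 0.804 with LE. These values rest on 79 and 73 reads in -R and on 12 to 22 reads in the other libraries. With RANKL it fell by 1.65 on the log2 scale (SE 0.20, adjusted p = 6.62e-06), the smallest fall among the 7. Ccl8 (chr11:82115185-82116799, + strand) had 5 and 6 reads in -R, or 0.336 and 0.340 RPKM, and 0 reads in each of the 4 libraries with RANKL. At a limit of 3 reads over the group, it would be 3.51-fold lower in +R than in -R and 3.54-fold lower in R+LE. These folds take the -R level as exact, although it rests on 5 and 6 reads. Below the filter, Ccl8 received no test. With the filter left out, its log2 fold change was -0.75 in +R against -R (limma, adjusted p = 0.00034). It was also -0.75 in R+LE against -R (adjusted p = 0.00069). From the -R level of Ccl8, a fall to 0 reads gives -0.75 on this scale, because of the constant added to RPKM. A 2-fold call was therefore out of reach, and these estimates cannot show how large the fall was. The adjusted p-values rest on 5 and 6 reads against 0, and the fit did not model the counting error of these reads.

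Ccl3, Ccl4 and Ccl5 encode the macrophage inflammatory proteins MIP-1α and MIP-1β and RANTES, and CCL3 and CCL5 are ligands of CCR1. Ccl3 (chr11:83647843-83649378, - strand) was at 25.1 and 30.3 RPKM in -R, 3.44 and 3.36 in +R, and 3.71 and 4.35 with LE. Ccl4 (chr11:83662584-83664683, + strand) was at 21.1 and 21.9 RPKM in -R, 1.29 and 1.69 in +R, and 1.45 and 1.86 with LE. Ccl5 (chr11:83525779-83530518, - strand) was at 25.2 and 23.4 RPKM in -R, 2.91 and 1.11 in +R, and 1.51 and 1.62 with LE. In each of the 3 genes every library with RANKL lay below both -R libraries, and the +R libraries of Ccl5 lay further apart than those of Ccl3 and Ccl4. RANKL lowered Ccl3 by a log2 fold change of -2.85 ± 0.15, Ccl4 by -3.47 ± 0.16 and Ccl5 by -3.40 ± 0.24 (adjusted p = 5.37e-10, 1.60e-10 and 2.39e-08). The ratio of Ccl3 to Ccl4 RPKM was 1.19 and 1.39 in -R and 2.66 and 1.99 in +R.

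Ccl6 and Ccl9 encode a related pair of ligands of CCR1 that rodents have and macrophages produce without stimulation. Ccl6 (chr11:83587886-83593087, - strand) was at 423 and 442 RPKM in -R, 24.1 and 24.3 in +R, and 27.4 and 27.4 with LE. It fell 17.6-fold with RANKL (log2 fold change -4.13 ± 0.14, adjusted p = 7.65e-12). Ccl9 (chr11:83572917-83578636, - strand) was at 462 and 457 RPKM in -R, 471 and 402 in +R, and 345 and 267 with LE. Its -R and +R libraries overlapped, and the log2 fold change was -0.08 with a 95% interval of -0.47 to 0.32 (adjusted p = 0.755), an interval that excludes a 2-fold difference.

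The 2 genes started from like levels and ended far apart. The ratio of Ccl9 to Ccl6 RPKM was 1.09 and 1.03 without RANKL, 19.6 and 16.5 with it, and 12.6 and 9.73 when LE was added. Their gene bodies lie 9.25 kb apart on the same strand. The best local alignment of the windows upstream of them, shown above, holds 1 run of at least 8 identical bases, of 13 bases. Runs shared outside that alignment were not counted. The exons of neither gene overlapped those of another gene in the GENCODE M21 annotation. The Ccl9 transcript shares exact stretches of at least 30 bases with transcripts of 2192 other genes, the longest of 73 bases with Ppp1r7. Reads were of 100 bases. Stretches with mismatches were not searched, and the effect of such sharing on the Ccl9 values was not tested. For Ccl6 there was 1 such gene, Slc17a4, with 48 bases, and for the other 8 members 0.

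Ccl22 (chr8:94745684-94751388, + strand), the ligand of CCR4 that dendritic cells and macrophages secrete, was the member with a positive estimate. It was at 0.226 and 0.572 RPKM in -R, 1.15 and 0.703 in +R, and 1.04 and 0.873 with LE, from 12 and 36, 64 and 39, and 59 and 48 reads. The +R libraries lay above both -R libraries by a log2 fold change of 0.68 ± 0.25 (adjusted p = 0.0358), short of 2-fold on this scale. The ratio of the mean RPKM was 2.33, and Ccl22 was called higher with a pseudocount of 0.1 (log2 fold change 1.10 ± 0.40, adjusted p = 0.0362) and with voom on the recovered reads (1.26 ± 0.45, adjusted p = 0.0236). The difference rested on single libraries, since the adjusted p was 0.311 without -R replicate 1 and 0.254 without +R replicate 1.

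**Figure D2:**
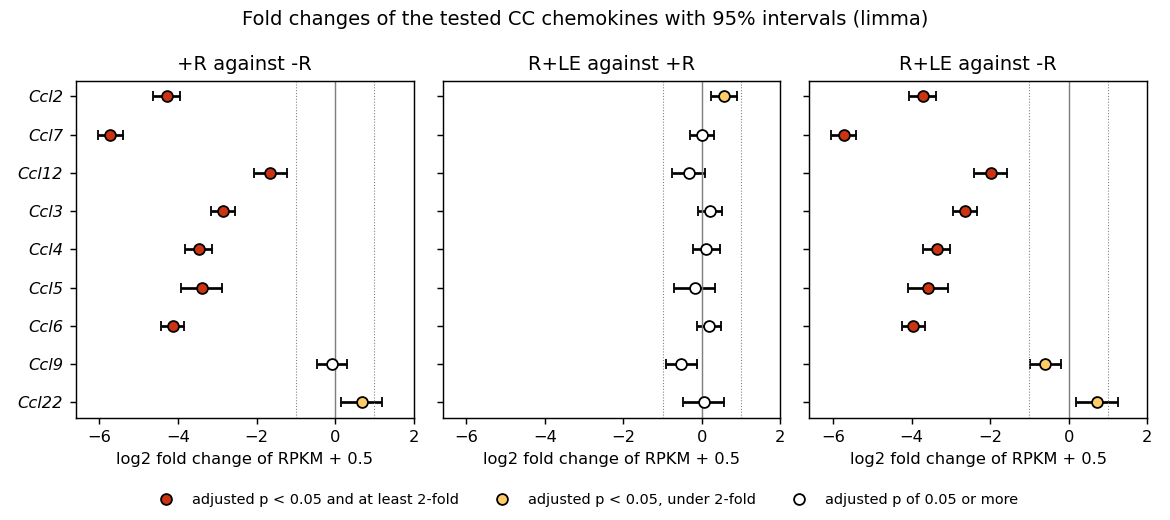
Log2 fold changes of RPKM + 0.5 (x axis) of the 9 tested CC chemokines (y axis) in each of the 3 comparisons, with 95% intervals from limma, a solid line at no change and dotted lines at 2-fold. In +R against -R and in R+LE against -R, 7 genes lie beyond the 2-fold line on the left, and in R+LE against +R 0 genes lie beyond it on either side.

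The balance among the chemokines differed between the conditions. The summed RPKM of the 10 members was 1481 ± 18.5 in -R, 489 ± 50.5 in +R and 369 ± 59.4 with LE. Ccl9 made up 31.0% ± 0.617 of the sum in -R, 89.3% ± 0.760 in +R and 82.7% ± 1.59 with LE. Ccl6 went from 29.2% of the sum in -R to 4.98% in +R, Ccl2 from 21.3% to 3.24% and Ccl7 from 13.1% to 0.656%. Without Ccl9, the sum of the other 9 was 1022 ± 21.9 RPKM in -R, 52.1 ± 1.69 in +R and 63.4 ± 4.38 with LE. By recovered reads, which weigh long transcripts more, Ccl9 with its transcript of 3002 bases made up 56.1% in -R, 95.8% in +R and 93.0% with LE.

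**Figure D3:**
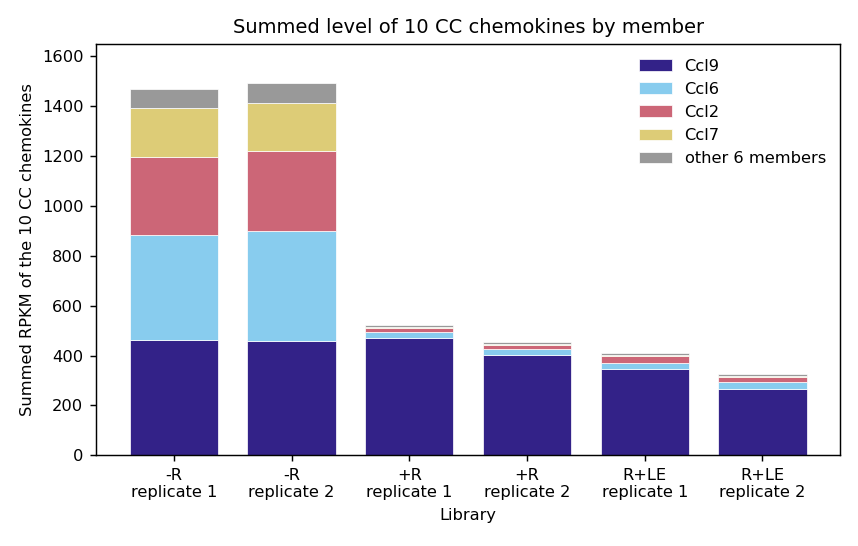
Summed RPKM of the 10 CC chemokines (y axis) in each of the 6 libraries (x axis), stacked by member, with the 6 members of lower level drawn together. The stacks of the 2 -R libraries hold 4 large parts, and those of the 4 libraries with RANKL consist mostly of Ccl9, which makes up 89.3% of the sum in +R and 82.7% in R+LE on average.

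With RANKL alone, the members of lower level could hardly be ordered. In +R the ranges of Ccl9 (436 ± 48.8 RPKM), Ccl6 (24.2 ± 0.174) and Ccl2 (15.7 ± 0.515) stood apart, whereas each of Ccl3, Ccl7, Ccl5, Ccl4, Ccl12 and Ccl22, from 3.40 ± 0.0594 down to 0.929 ± 0.319 RPKM, overlapped its neighbour in the order. In R+LE, Ccl9 (306 ± 55.0 RPKM) was again first, and the ranges of Ccl6 and Ccl2 overlapped, as did those of Ccl4 and Ccl5, whereas Ccl3, Ccl7, Ccl5, Ccl22 and Ccl12 each stood apart from the next gene in the order.

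The leaf extract was compared with RANKL alone to ask whether it restores or alters these levels. Of the 9 members tested, 0 were called in either direction, where 3.23% of all tested genes were called, and 2 (Ccl2 and Ccl9) had an unadjusted p below 0.05. The 9 had a median log2 fold change of 0.04, against -0.05 over all tested genes. At any fold change, 1 member had an adjusted p below 0.05, which 12% of all tested genes reached. That member was Ccl2, which both R+LE libraries held at a higher level than both +R libraries (27.4 and 20.2 against 15.4 and 16.1 RPKM), by a log2 fold change of 0.57 with a 95% interval of 0.23 to 0.91 (adjusted p = 0.0295). The estimate was 0.35 without R+LE replicate 1, with an adjusted p of 0.110.

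Ccl9 was lower in both R+LE libraries than in both +R libraries, by a log2 fold change of -0.52 with a 95% interval of -0.91 to -0.13, which did not pass the adjustment (adjusted p = 0.0871). For the remaining 7 the estimates lay between -0.33 (Ccl12) and 0.21 (Ccl3). Their 95% intervals were -0.75 to 0.09 for Ccl12, -0.70 to 0.33 for Ccl5, -0.31 to 0.31 for Ccl7, -0.22 to 0.45 for Ccl4, -0.12 to 0.48 for Ccl6, -0.10 to 0.52 for Ccl3 and -0.49 to 0.57 for Ccl22. Each of these intervals included 0 and, on this scale, lay within 2-fold. For the members with few reads that limit did not hold in every analysis, since voom on the recovered reads gave -0.48 ± 0.53 (SE) for Ccl12 and -0.20 ± 0.46 for Ccl5, wide enough to include 2-fold lower. Without +R replicate 2 the estimate for Ccl5 was -0.72 ± 0.21, with an adjusted p of 0.00722.

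With the extract, Ccl2, Ccl7, Ccl12, Ccl3, Ccl4, Ccl5 and Ccl6 remained at least 2-fold below -R. In R+LE against -R, 7 of the 9 members were called lower and 0 higher, where 6.36% of all tested genes were called lower, and 9 of 9 had an adjusted p below 0.05, which 34.3% of all tested genes reached. This comparison shares its control libraries with that of +R against -R, so the values are given side by side. The log2 fold change was -5.73 in both for Ccl7, -3.72 after LE beside -4.28 in +R for Ccl2, -3.96 beside -4.13 for Ccl6, and -1.98 beside -1.65 for Ccl12. Ccl9, which overlapped -R in the +R libraries, was below both -R libraries in R+LE (log2 fold change -0.60 with a 95% interval of -0.99 to -0.20, adjusted p = 0.0205), and its adjusted p was 0.167 and 0.145 when the first or the second -R library was left out. Ccl22 was 0.72 higher on the log2 scale than in -R (adjusted p = 0.0352), with an adjusted p of 0.0114 to 0.308 over the 16 alternatives that tested it.

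Some lists of cell type markers were lower with RANKL, as most members were, the osteoclast list was higher, and several had no gene called. Over all tested genes, 8.92% were called lower with RANKL and 6.58% higher. The part of other cell types in the result was not tested. In bulk RNA, fewer cells of a type and less RNA per cell cannot be told apart. The 5 macrophage markers were present throughout, with a summed level of 1327 to 1433 RPKM in -R, 791 to 901 in +R and 702 to 853 with LE, and 1 of 5, Mertk, was called lower in +R. The 7 osteoclast markers summed to 40.2 to 41.2 RPKM in -R, 1718 to 1947 in +R and 301 to 343 with LE. All 7 were called higher with RANKL and lower again when LE was added, and the defining markers Calcr and Oscar were at 0 in both -R libraries. The 5 markers of inflammatory monocytes summed to 133 to 151 RPKM in -R, 13.5 in both +R libraries and 10.6 to 11.2 with LE, with 3 of 4 tested called lower in +R. Among them Ly6c2 was at 37.5 and 41.3 RPKM in -R and at no more than 0.310 RPKM in the libraries with RANKL. Ccr2, which is described again with the receptors below, is 1 of these 5 markers and was at 9.54 and 9.21 RPKM in +R. The 6 neutrophil markers summed to at least 15.5 RPKM in each -R library, to 0.716 to 0.816 in +R and 0.592 to 2.46 with LE. Both tested markers, S100a8 and S100a9, were called lower in +R, and Elane and Mpo of the same list stayed at or below 0.143 RPKM in every library. The 4 B cell markers summed to 1.55 to 1.94 RPKM in -R and to at most 0.124 RPKM with RANKL. The 5 dendritic cell markers stayed at or below a summed 1.45 RPKM and the 4 T cell markers at or below 0.332 RPKM, Cd3e was at 0 in all libraries, and so were Cpa3 and Ms4a2 of the 3 mast cell and basophil markers and the 4 erythroid markers. The 5 stromal and osteoblast markers summed to 13.1 to 14.9 RPKM in -R, 8.99 to 13.0 in +R and 7.02 to 7.96 with LE.

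All members but Ccl22 lie on chromosome 11 in a pair of runs. The first run of 81.2 kb holds Ccl2, Ccl7, Ccl12 and Ccl8, with Ccl11 among them at 0 RPKM in all 6 libraries, and the second run of 138.9 kb, which starts 1409 kb further on, holds Ccl5, Ccl9, Ccl6, Ccl3 and Ccl4, with the noncoding E230016K23Rik, whose gene body overlaps that of Ccl6 on the other strand, at 0.134 to 0.490 RPKM. In the first run the 3 members tested had log2 fold changes of -5.73 to -1.65. In the second, 4 of 5 fell, with log2 fold changes of -4.13 to -2.85, and Ccl9 lay between Ccl5 and Ccl6, which both fell.

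**Figure D4:**
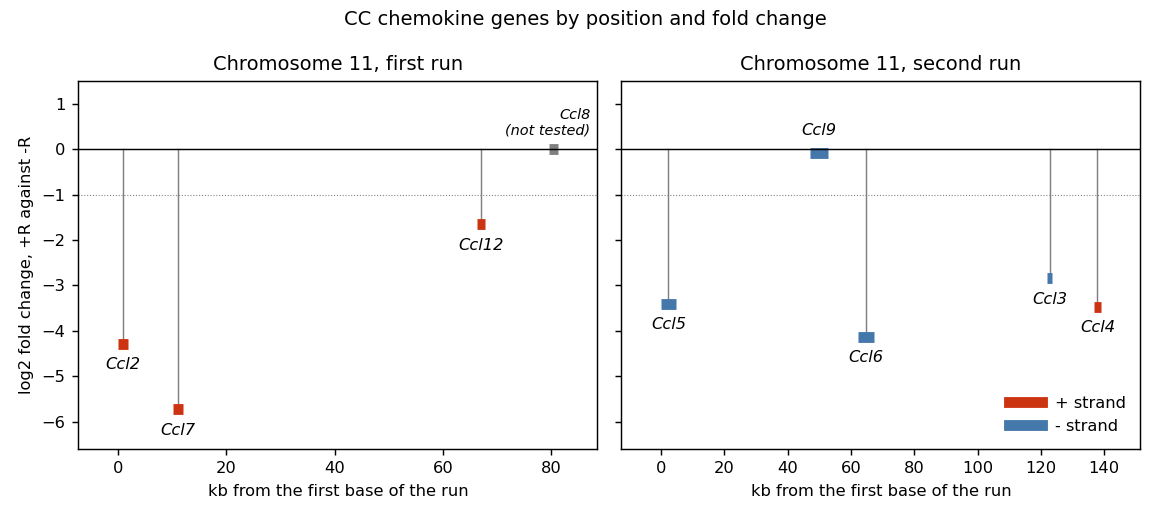
Position of the 9 CC chemokine genes of chromosome 11, in kb from the first base of each run (x axis), against the log2 fold change of +R against -R (y axis), with bars as wide as the gene and coloured by strand and a dotted line at 2-fold lower. Ccl9 lies at -0.08 while its neighbour Ccl6, 9.25 kb away on the same strand, lies at -4.13. Ccl8, which was below the filter and so not tested here, is drawn at 0.

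Over the 6 libraries, the members most alike in profile were Ccl2 and Ccl6, whose log2(RPKM + 0.5) values, centred on their own means, differed by a root mean square of 0.204. Ccl4 and Ccl6 followed with 0.317 and Ccl3 and Ccl4 with 0.340. Ccl9 was 1.78 from Ccl6 and 2.55 from Ccl7, and its closest member was Ccl22, at 0.571. Outside the members and the lists of chemokines, receptors and regulators, the genes nearest to the median profile of the 9 members were Gpr65, F13a1, Igf2bp2, S100a9 and Hip1, at 0.179 to 0.203, where the median over all tested genes was 1.55. Gpr65, a proton-sensing receptor, was at 18.8 and 19.4 RPKM in -R and 1.64 to 2.35 RPKM in the other libraries, and F13a1, the A subunit of coagulation factor XIII, at 5.10 and 6.54 and then 0.187 to 0.338 RPKM. S100a9, a calprotectin subunit and 1 of the 6 neutrophil markers summed above, was at 5.94 and 4.50 RPKM in -R and at 0 in the other 4 libraries. Nearest to Ccl22 were Calcrl, Kcnj2 and Golm1, at 0.0906 to 0.106, where the median was 0.425. These likenesses rest on 6 libraries of 3 conditions.

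CC receptor genes were followed in the same libraries. Of 14 of them, 4 passed the filter, and 2 of these (Ccr2 and Ccrl2) fell with RANKL, while 0 rose, with a median log2 fold change of -0.57. Over all tested genes, 8.92% were called lower and 6.58% higher in this comparison. Ccr2, the receptor of CCL2, CCL7 and CCL12, was at 38.7 and 51.4 RPKM in -R, 9.54 and 9.21 in +R, and 6.22 and 5.34 with LE, and the log2 fold change with RANKL was -2.19 ± 0.16. It fell along with its 3 ligands. Ccrl2, an atypical receptor, was at 1.90 and 1.75 RPKM in -R and 0.704 and 0.593 in +R, at the edge of 2-fold (-1.02 ± 0.22), and was called in 13 of 17 alternative analyses, but not without -R replicate 1 or +R replicate 2.

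Ccr1, the receptor of CCL9, CCL6, CCL3 and CCL5, was at 23.7 and 23.6 RPKM in -R, 36.1 and 26.0 in +R, and 10.7 and 8.25 with LE. Its log2 fold change with RANKL was 0.37 (adjusted p = 0.0916), and that of R+LE against +R was -1.66 ± 0.17 (adjusted p = 1.09e-05). Ccr3 was at 2.57 and 3.16 RPKM in -R, 2.91 and 2.30 in +R, and 1.04 and 0.482 with LE, a log2 fold change of -1.33 ± 0.21 with LE, and it was not called when no filter was applied. Ccr1 and Ccr3 were the 2 receptors called lower with LE, of 4 tested, where 206 of all 11595 tested genes were called lower. Ccr2 was lower by less than 2-fold (log2 fold change -0.66, adjusted p = 0.0108). Against -R, all 4 were called lower in R+LE, where 6.36% of all tested genes were, and Ccrl2 was in 12 of 17 alternatives. Ccr4, the receptor of CCL22, was at 0.010 to 0.073 RPKM, from 1 to 6 reads, and Ccr8, a receptor of mouse CCL8, at 0 to 0.137 RPKM, so that neither could be compared at this depth.

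Of the 14 further CC chemokine genes, only Ccl25, a ligand of thymus and gut, passed the filter, at 1.30 to 2.13 RPKM, and it was not called in any comparison (log2 fold change -0.13 with RANKL and -0.11 with LE). The dendritic cell ligand Ccl17, which lies 59.1 kb from Ccl22, was at 0 to 0.256 RPKM.

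Of 17 CXC, CX3C and XC chemokine genes 8 passed the filter. With RANKL 5 of them fell (Cxcl1, Cxcl2, Cxcl3, Pf4 and Cxcl14) and 2 rose (Cxcl10 and Cxcl11), with a median log2 fold change of -1.38. Over all tested genes, 8.92% were called lower and 6.58% higher. Cxcl1, from 4 and 6 reads in +R, was not called with a pseudocount of 1 or without the filter, 2 of its 14 alternatives. Pf4, platelet factor 4, was at 119 and 123 RPKM in -R, 5.98 and 8.71 in +R, and 18.3 and 12.7 with LE (log2 fold change with RANKL -3.98 ± 0.19). The mean RPKM of Pf4 was 16.5-fold lower in +R than in -R, and that of Cxcl2, a neutrophil attractant, 22.4-fold lower, from 5 reads in each +R library. Cxcl10, a ligand of CXCR3 induced by interferon, was at 6.07 and 5.09 RPKM in -R, 31.1 and 29.2 in +R, and 44.9 and 45.5 with LE, and rose by 2.34 ± 0.14 with RANKL. Cxcl11, another ligand of CXCR3, was at 0.088 and 0.037 RPKM in -R and at 1.65 and 1.23 in +R (log2 fold change 1.78 ± 0.21). With LE, where 169 of all 11595 tested genes were called higher than in +R, 2 of the 8 were. These were Cxcl14, at 26.8 and 25.8 RPKM in +R and 66.0 and 52.6 in R+LE (log2 fold change 1.15 ± 0.15), and Pf4 (1.03 ± 0.19). Neither was called without R+LE replicate 1, and Pf4, called in 13 of 17 alternatives, was not called without +R replicate 1 either. The estimate was above 0 for 8 of 8, with a median log2 fold change of 0.57, where that of the CC members was 0.04. Over all tested genes it was above 0 for 4874 of 11595, with a median of -0.05. Among the 8, Cxcl1, Cxcl2 and Cxcl3 rested on 2 to 6 reads in each +R library.

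**Figure D5:**
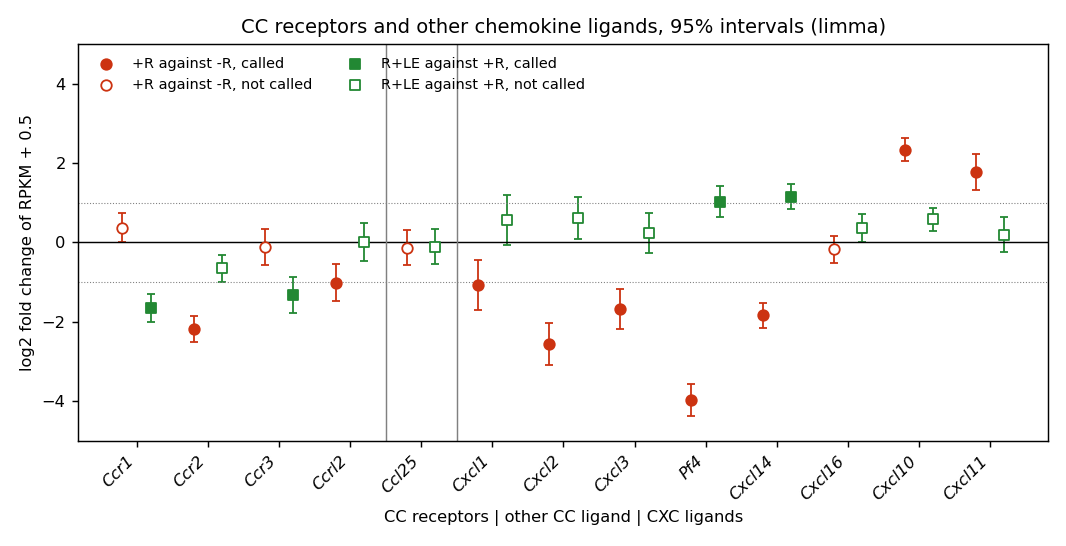
Log2 fold changes of RPKM + 0.5 (y axis) of 4 CC receptors, of Ccl25 and of the tested CXC ligands (x axis), for +R against -R (circles) and R+LE against +R (squares), with 95% intervals from limma, filled where called. With RANKL, 2 receptors and 5 CXC ligands were called lower and Cxcl10 and Cxcl11 higher, and with LE Ccr1 and Ccr3 were called lower and Pf4 and Cxcl14 higher.

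Of 17 genes known to regulate chemokine promoters or induce chemokines, 16 passed the filter. With RANKL, 6.58% of all tested genes were called higher and 8.92% lower. Of the 16, 3 rose (Relb, Nfkb2 and Nfkbia, of the NF-κB family and its inhibitors) and 5 fell (Irf5, Irf7, Irf8, Cebpb and Tnf). Of these calls, Tnf was lost without +R replicate 2. Nfkb2, a subunit of the alternative NF-κB pathway, was at 11.4 and 10.8 RPKM in -R and 68.9 and 75.3 in +R (log2 fold change 2.64 ± 0.14). Irf8, which sustains the macrophage programme, was at 66.9 and 65.2 RPKM in -R, 4.07 and 5.21 in +R, and 7.88 and 6.76 with LE (-3.70 ± 0.15), and Irf7, which amplifies the interferon response, was at 469 and 446 RPKM in -R and 40.0 and 42.4 in +R (-3.46 ± 0.15). Rela, the p65 subunit of NF-κB, was at 22.5 and 23.5 RPKM in -R and 21.3 and 18.6 in +R (-0.20, adjusted p = 0.247). With LE, 0 of the 16 were called, where 3.23% of all tested genes were called. Irf5, Irf8, Cebpb and Tnf were each higher than in +R by less than 2-fold, by 0.61 to 0.82 on the log2 scale, with adjusted p-values of 0.0042 to 0.0128, and Relb was lower by 0.46 (adjusted p = 0.0493). Whether any of these genes act on the CC chemokines here was not tested.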

How the data were processed

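The deposited table holds 1 value per gene and library, made by the authors as RPKM. Per the labels and the methods, reads of 100 bp from paired ends were aligned to mm10 (the methods name TopHat, the submitters' processing notes HISAT2) and counted on exons with HOMER, on either strand and with 1 transcript per gene. The notes also list DESeq2, and versions were not given in the sources used here. The column titles say FPKM. A spreadsheet had turned 26 gene symbols into dates, and they were restored from transcript identifiers. Whole reads were recovered from RPKM and transcript length and gave the depth. Of the values checked, which were those little affected by the rounding of RPKM, at least 99.987% were whole in each library. The tolerance was 0.02 reads, or the rounding error of the RPKM where that was larger. The counting limit for Ccl8 covers counting error in the groups with RANKL only.

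RPKM values are not counts, so limma 3.58.1 in R 4.3.3 was fitted to log2(RPKM + 0.5) of all 6 libraries together, with a variance trend, empirical Bayes moderation and Benjamini-Hochberg adjustment over 11595 genes. Genes were called at an adjusted p below 0.05 and at least 2-fold. An exact permutation test of 2 against 2 libraries cannot go below 0.333 and was not run. Promoters were searched for motifs in Python 3.11.15 with Biopython 1.88, and tables and figures were made with pandas 2.3.3, numpy 2.4.6 and matplotlib 3.10.9. The limma fit was tested on simulated data. The members, the gene lists and the tests were chosen with earlier results of these data known. Some genes of the lists are not reported here. The named genes were the members, the other genes of the lists, the genes most alike in profile and the markers used to check the labels. Groups came from the sample labels. The results were recomputed with a pseudocount of 0.1 or 1, without the filter or with a minimum of 1 RPKM, without the variance trend, with the compared groups fitted alone, after median centring or quantile normalization, with depth taken without the ribosomal RNA gene Rn45s, with a replicate block, with voom on the recovered reads, and without each library in turn.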

Additional observations from a re-analysis of the deposited data

How the results depend on the processing

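The 7 members called lower with RANKL kept that call in all 17 alternatives, both in +R against -R and in R+LE against -R, and 0 members were called in R+LE against +R in any of them. Ccl22 made the count of members called higher 1 in +R against -R, and 1 in R+LE against -R, with a pseudocount of 0.1 and likewise 1 and 1 with voom on the recovered reads, where the reported count was 0. Over all tested genes, voom called 259 higher in R+LE against +R, against 169. Estimates near 0 changed sign. That of Ccl7 in R+LE against +R was 0.000975 with a pseudocount of 0.1, 0.0504 after median centring, 0.0419 after quantile normalization, 0.0156 with voom and 0.0387 with depth taken without Rn45s. With 1 library left out, log2 fold changes of R+LE against +R ranged from -0.185 to 0.183 for Ccl7, from -0.0310 to 0.258 for Ccl4, from -0.725 to 0.355 for Ccl5 and from -0.188 to 0.271 for Ccl22, and that of Ccl9 in +R against -R from -0.192 to 0.0366. The adjusted p of Ccl5 in R+LE against +R was 0.00722 without +R replicate 2 and at least 0.389 in the other alternatives. In R+LE against +R, Ccl2 had an adjusted p below 0.05 in 9 of 17 alternatives (0.00170 to 0.144) and Ccl9 in 5 of 17 (0.00442 to 0.512). Ccl9 in R+LE against -R stayed below 0.05 in 14 of 17. Ccl22 in +R against -R stayed below it in 12 of the 16 that tested it. Depth without Rn45s, which took 4.97% to 13.5% of the reads on genes, moved the median of all tested genes in +R against -R to 0.115. The causes of these shifts were not tested.

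With a replicate block the calls of the members were the same in number, 7, 0 and 7 in the 3 comparisons, and 173 and 216 genes in all were called higher and lower in R+LE against +R, against 169 and 206. Replicate numbers were not taken as pairs in the reported fit. Deviations from the group means of libraries with the same number had correlations of -0.046 to 0.249 across genes. These values cannot settle whether libraries of the same number were paired. The block brought Ccl9 in R+LE against +R below the threshold, with an adjusted p of 0.0283.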
